A study of Homo sapiens with 6 samples.

Results

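The 28 genes described here encode proteins of the small (40S) ribosomal subunit, and their messenger RNA levels were compared between cells with and without a knock-down of a circular RNA. They were taken by symbol from the 62703 gene IDs of each count table, and each symbol matched 1 ID. Other proteins of the subunit were not analysed here. The samples were 6 libraries of SEM, an established human line of B-cell precursor acute lymphoblastic leukaemia (B-ALL) that carries the KMT2A::AFF1 gene fusion. In 3 libraries (knock-down, KD) the cells had received a pair of Dicer-substrate interfering RNAs placed on the back-splice junction of the fusion-derived circular RNA AK_8_2. In the other 3 (negative control, NC) they had received a commercial non-targeting duplex. Cells of both groups went through a reverse and then a forward transfection with Lipofectamine RNAiMAX, and globin transcripts were depleted from the total RNA libraries. All libraries come from 1 cell line, a gene count does not measure the circle itself, and the labels do not say whether the replicates were separate cultures, so p-values measure the spread between these libraries only.

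The small subunit binds the messenger RNA and checks the match between codon and transfer RNA, and its proteins hold the folded 18S ribosomal RNA in a head, a body and a platform. Cells make these proteins in matched amounts, and most of their messenger RNAs begin with a terminal oligopyrimidine (TOP) tract, a C followed by an unbroken run of C and T, through which the mTORC1 kinase and the La-related protein LARP1 adjust their translation together. Loss of 1 copy of several of these genes causes Diamond-Blackfan anaemia, and leukaemic blasts, as growing cells, make large numbers of ribosomes.

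The start sites of the members the results turn on show the TOP tract that most of the genes share. The lines below give 6 bases before and 24 bases from the transcript start in RefSeq (GRCh38.p14), 5′ to 3′ on the gene's strand. Capitals mark the unbroken run of C and T that reaches the first base of the transcript, which is the seventh base printed, and a line without capitals has no such run at that base. For RPS29 a further line gives the first 24 bases of the GENCODE 29 principal transcript (GRCh38), whose start is backed by CAGE tags. RPS29, RPS21, RPS13, FAU, RPS19 and RPS3 are shown because at least 1 fit called them, RPS12 because it had the lowest fold change, and RPS27A because, like FAU, it is made as a fusion with a ubiquitin-type protein.
RPS29, RefSeq start, chr14:49598687-49598716, minus strand: cgcagCTggcagcggtggttgtttctgttc
RPS29, GENCODE start, chr14:49586353-49586376, minus strand: CTTTTacctcgttgcactgctgag
RPS21, chr20:62387097-62387126, plus strand: ctgCTTCCTTTCTCTCTCgcgcgcggtgtg
RPS13, chr11:17077644-17077673, minus strand: cgCTCTCCTTTCgttgcctgatcgccgcca
FAU, chr11:65122111-65122140, minus strand: TTCTTCCTCTTTCTCgactccatcttcgcg
RPS19, RefSeq entry, chr19:41860398-41860427, plus strand: ccccctagagccgcggccacgtgcgagcgg
RPS19, RefSeq entry with the tract, chr19:41860249-41860278, plus strand: gtcgTTCCCTTTCCCCTggctggcagcgcg
RPS3, chr11:75399512-75399541, plus strand: ccaCTTCCTTTCCTTTCagcggagcgcggc
RPS27A, RefSeq entry, chr2:55231897-55231926, plus strand: acacacaagacccagactcttccctaggct
RPS27A, RefSeq entry, chr2:55232672-55232701, plus strand: ctgcgcggcgttcttccttttcgatccgcc
RPS27A, RefSeq entry with the tract, chr2:55232682-55232711, plus strand: TTCTTCCTTTTCgatccgccatctgcggtg
RPS12, chr6:132814563-132814592, plus strand: tgaggCCTCTTTCCCTgccgccgccgagtc

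A start with C at the first base and at least 4 further pyrimidines, read on the gene's strand, was found in 19 of the 25 members with a RefSeq promoter entry (76.0%), counting a gene if any of its entries had it. By the same count it was found in 5.14% of the 27305 genes with such an entry. RPS2, RPS15A and RPS20 had no entry. Which first base is taken decides for 3 of the genes printed: RPS27A has the tract in 1 of its 3 RefSeq entries, RPS19 in 1 of 2, and RPS29 at its GENCODE start but not at its RefSeq start. A match describes the letters of the window and is not evidence of regulation.

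Gene counts totalled 16531673 to 26694160 in the KD libraries and 14750579 to 24186646 in the NC libraries. Both replicate 1 libraries were unlike the rest in reads assigned to no annotated feature. These made up 50.03% of records in KD and 48.6% in NC, and 11.3% to 17.3% in the 4 remaining libraries. KD replicate 3 differed otherwise, since multiply aligned reads made up 31.5% of its records and mitochondrial ribosomal RNA 6.79% of its gene counts. Of 10 B-cell precursor markers, 8 were above 1 CPM (counts scaled to library size) in every library, and BLNK and DNTT were not. The summed levels of the 10 were 1629 to 1933 CPM in KD and 1712 to 1998 CPM in NC. Summed levels of 5 T-cell markers were 82.4 to 85.8 CPM in KD and 80.4 to 93.1 CPM in NC, and of these TRAC alone passed 1 CPM in every library. Of 5 myeloid markers LYZ and CSF1R passed, with sums of 24.3 to 25.8 CPM in KD and 22.8 to 27.7 CPM in NC. Of 5 erythroid markers none passed, with sums of 0.0472 to 2.78 CPM in KD and 0 to 2.17 CPM in NC, and globin depletion can lower HBA1, HBA2 and HBB.

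The 28 genes took 2.78%, 2.91% and 2.85% of all gene counts in the KD libraries, and 2.72%, 2.73% and 2.80% in the NC libraries, in the order of replicates 1 to 3 used throughout. The mean share was 2.85% ± 0.0669 in KD and 2.75% ± 0.0436 in NC (mean ± SD, n = 3 each). The share was higher in KD in each pair of equal replicate number, but KD replicate 1 lay below NC replicate 3, so the groups overlapped. In bulk RNA a change in the number of cells that make an RNA and a change in RNA per cell cannot be told apart.

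Messenger RNA levels of the members differed widely within the same cells. To compare genes, CPM was divided by the length of the coding sequence in kilobases, since the longest members are several times longer than the shortest. RPS29, a zinc-binding protein of the head, had the highest level on this scale, 9079 CPM per kb in KD and 7317 in NC (group means). RPS24 followed with 4771 CPM per kb in KD and 4453 in NC, then RPS23, a protein of the decoding region, with 3530 in KD and 3283 in NC. RPS29 and RPS24 each stood clear of the next gene in all NC libraries. The first place of RPS29 depends on the division by length. Its NC mean before division was 1229 CPM, below RPS4X at 2068, RPS2 at 2046 and RPS6 at 2015, among others. Divided by the length of the whole annotated messenger RNA instead, NC means were 4153 CPM per kb for RPS29 and 2802 for RPS24, followed by RPS18 at 2370 and RPS21 at 2289. On that scale RPS23, whose annotated messenger RNA is 3437 bases long for 429 coding bases, had 410 and RPS28 had 327, so the places of these 2 genes depend on the length used. Per kb of coding sequence, the order below them was mostly not resolved: 22 of the 27 neighbouring pairs in the NC order overlapped in range across the 3 NC libraries. At the low end stood FAU with 965 CPM per kb in KD and 846 in NC, and RPS9, a protein of the body near the messenger RNA entry, with 822 in KD and 829 in NC. RPS26, which contacts messenger RNA at the exit channel, had 610 CPM per kb in KD and 580 in NC, and RPS15A had 530 in KD and 490 in NC. Pseudogenes named after the members also took counts. Per 100 counts of the gene, the largest NC means were 87.7 for RPS10, 68.9 for RPS15, 50.7 for RPS7, 39.8 for RPS27 and 29.4 for RPS15A. For 14 genes the mean was under 1. The part that reads shared with pseudogenes play in these levels was not tested.

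**Figure D1:**
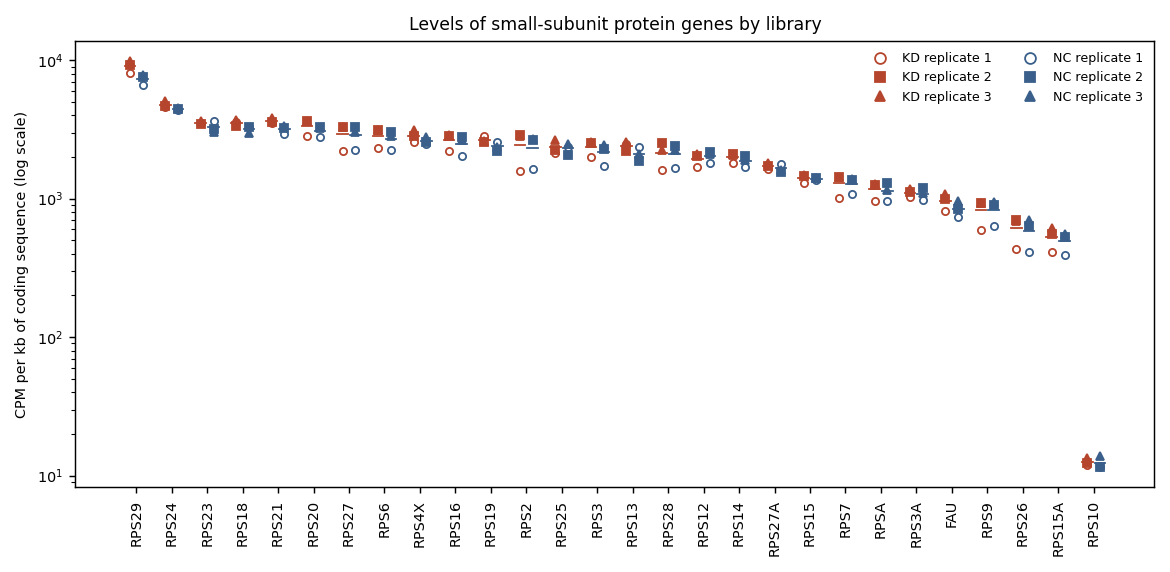
Level of each of the 28 genes in each library, as CPM per kilobase of coding sequence on a logarithmic axis, ordered by the NC mean, with KD (red) left of NC (blue) and short bars for the group means. RPS29 stands highest, at 9079 in KD and 7317 in NC, RPS10 lies far below every other gene, and the open circles of replicate 1 lie low for many genes in both groups.

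RPS10, a head protein near the messenger RNA entry, was an exception with 12.6 CPM per kb in KD and 12.3 in NC. It had 105, 156 and 127 counts in KD, against 92, 132 and 157 counts in NC, with overlapping groups. In GENCODE 29 84.0% of its messenger RNA is shared on the same strand with the readthrough gene RPS10-NUDT3, which had 0 counts in all 6 libraries. The part that ambiguous reads of the shared exons play in this level was not tested. RPS15A, of the body, shares 41.5% of its messenger RNA in the same way, FAU 12.3% and RPS13 8.98%, so their levels are uncertain too. Other members share part of their messenger RNA with genes on the opposite strand only. This part is 36.6% for RPS25, 27.5% for RPS28, 22.4% for RPS3A, 20.3% for RPS6 and 14.9% for RPS27A. It is smaller for RPS23 and RPS18. The strand setting of the counting is not given in the sources used here. The part that opposite-strand overlap plays in these levels was not tested.

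With group as the only term, none of the 28 genes passed the test between KD and NC. The quasi-likelihood test of edgeR, with p-values adjusted over 16929 genes by Benjamini-Hochberg, called 0 genes (0% in either direction), and DESeq2 and limma-voom also called 0. At an unadjusted p under 0.05 there were 0 members, beside 30 genes higher (0.177%) and 22 lower (0.130%) in KD over all genes. The estimates were small: the 95% interval of 25 of the 28 members excluded every change of 1.5-fold or more. The KD and NC libraries with equal replicate number varied together, which widened these intervals, and with the replicate number as a block all 28 intervals lay inside 1.5-fold. The block fit called 24 genes higher in KD (0.142%) and 5 lower (0.0295%), of which the members supplied 1, RPS29.

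RPS29 was higher in KD in every pair. It had 1358, 1561 and 1656 CPM in KD, against 1107, 1276 and 1305 CPM in NC. The lowest KD library lay above the highest NC library, so the groups did not overlap. The mean was 1525 ± 152 CPM in KD and 1229 ± 107 CPM in NC (mean ± SD, n = 3 each), a 1.24-fold difference with a 95% interval of 1.17 to 1.32 with the block. On the log2 scale it rose by 0.31 (SE 0.04, edgeR quasi-likelihood with block, Benjamini-Hochberg adjusted p 0.00122), and the differences within pairs 1, 2 and 3 were 0.30, 0.29 and 0.34. Without the block the same difference had an unadjusted p of 0.0542. The call ended without pair 1 (log2 fold change 0.32, adjusted p 0.443) and when libraries were scaled by their totals alone (adjusted p 0.0582), both in edgeR's quasi-likelihood test with block. RPS29 (ENSG00000213741.11) is a protein-coding gene on chromosome 14, 49570984 to 49599164, minus strand (GRCh38). Its exons overlap those of LRR1 on the opposite strand and those of the pseudogene RPL32P29 on the same strand, and how the counting treated strand is not stated in the sources used here. Both overlaps lie outside its principal messenger RNA of 296 bases. They lie within its annotated exons, which cover 9845 bases in GENCODE 29 when all transcripts are joined. The part that reads from these overlaps play in the RPS29 count was not tested.

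The other head proteins had smaller estimates. RPS19, on the solvent side of the head and the gene most often altered in Diamond-Blackfan anaemia, had 1225, 1114 and 1137 CPM in KD, against 1117, 966 and 1028 CPM in NC. Its KD value was higher in each pair, yet the highest NC library passed the lowest KD library (log2 fold change 0.16, edgeR quasi-likelihood with block, adjusted p 0.308). RPS18, which reaches the bridge to the large subunit, had 1622, 1528 and 1675 CPM in KD, against 1499, 1504 and 1354 CPM in NC. These groups did not overlap, though by a narrow margin in pair 2, and the gene was not called (0.15, adjusted p 0.740 in the same fit). RPS3, at the messenger RNA entry and also known in DNA repair, had 1446, 1829 and 1860 CPM in KD, against 1263, 1674 and 1777 CPM in NC. It was higher in KD in each pair while the groups overlapped (0.13, adjusted p 0.670 in the same fit). RPS20, a head protein beside RPS3, stood at 0.11 and RPS16, whose tail reaches the bound transfer RNA, at 0.08.

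RPS12, a protein of the beak of the head, had 671, 806 and 831 CPM in KD, against 721, 854 and 837 CPM in NC. Of the 28 genes it was the 1 that was lower in KD in all 3 pairs (12.6% of all tested genes were), the groups overlapped, and its log2 fold change of -0.07 was not called. RPS15, RPS25, RPS28, RPS27A and RPS10 completed the head with block estimates from 0.01 to 0.06. Over the 12 head proteins the median log2 fold change was 0.07, with 1 called and 11 higher in KD, where 0.142% of all tested genes were called higher and 48.0% were higher in KD.

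Among the 16 proteins of the body and platform none was called. RPS21, a small protein of the body, had 877, 893 and 948 CPM in KD, against 724, 811 and 827 CPM in NC. All KD libraries lay above all NC libraries, and the log2 fold change was 0.20 (SE 0.04, edgeR quasi-likelihood with block, adjusted p 0.107). RPS13, which contacts the large subunit at a bridge, had 1121, 999.8 and 1153 CPM in KD, against 1071, 847 and 946 CPM in NC. NC replicate 1 lay above KD replicate 2, so the groups overlapped, although KD was higher in each pair (0.20, adjusted p 0.196 in the same fit). FAU, which encodes the ribosomal protein eS30 behind a ubiquitin-like domain that is cut off, had 324, 399 and 432 CPM in KD, against 294, 335 and 384 CPM in NC. It was higher in KD in each pair, with overlapping groups (0.19, adjusted p 0.196 in the same fit). RPS27A, the other fusion gene and a protein of the head, carries ubiquitin itself and had 770.1, 799 and 847 CPM in KD, against 832, 729 and 757 CPM in NC. Its pairs disagreed in direction, with -0.11 in pair 1 and 0.13 and 0.16 in pairs 2 and 3.

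RPS24, a body protein, had 1829, 1861 and 2020 CPM in KD, against 1735, 1782 and 1813 CPM in NC, without overlap, and its log2 fold change of 0.10 was not called. RPS6, the body protein phosphorylated by S6 kinase downstream of mTORC1, had 1737, 2321 and 2331 CPM in KD, against 1668, 2269 and 2108 CPM in NC. It was higher in KD in each pair, by less than the difference between replicate 1 and the other libraries (0.08, uncalled). RPS2, near the messenger RNA entry, had 1388, 2530 and 2491 CPM in KD, against 1433, 2333 and 2372 CPM in NC, with overlap. RPS4X at 0.12, RPS15A and RPS23 at 0.11 each, RPS14 at 0.08, RPS26 at 0.07, RPS3A, RPS27 and RPSA at 0.03 each, RPS7 at 0.02 and RPS9 at -0.02 were all uncalled in the fit with the block. Over the 16 proteins the median was 0.08, with 15 higher in KD.

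**Figure D2:**
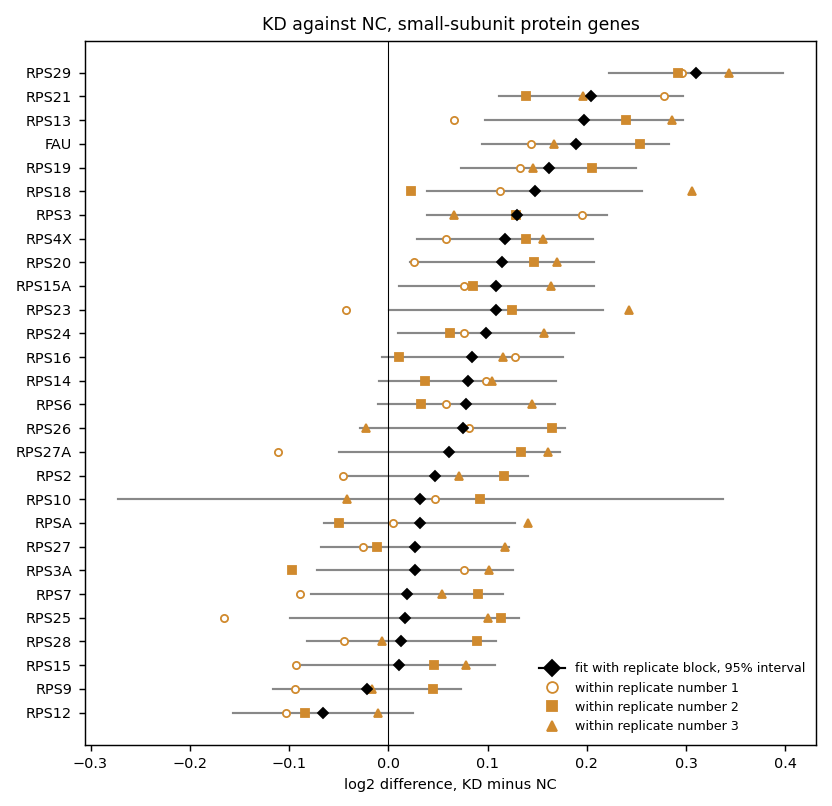
Log2 difference between KD and NC for each gene: diamonds are the fit with the replicate number as a block with its 95% interval, and orange marks are the differences within replicate numbers 1, 2 and 3. RPS29 stands at 0.31, 26 of the 28 diamonds lie above 0 (18 when libraries were scaled by their totals alone), and RPS12 is lowest at -0.07.

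Other settings of the fit with the block called between 0 and 6 members, all higher in KD. RPS29 alone was called with RLE factors (0.142% of all tested genes were called higher), with protein-coding library sizes (0.124%), with copies added (0.0831%), without pair 2 (0.153%) and without pair 3 (0.157%). With no filter on low counts RPS13 and RPS21 joined it (0.0776%), and in DESeq2, which adjusted over 5035 genes, FAU, RPS3 and RPS19 as well (0.715%). With library totals alone (0.0768%) and without pair 1 (0.0184%) no member was called.

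Over the 28 genes together, the estimates lay above those of all genes by a small amount. With the block 26 were higher in KD and 2 lower, RPS9 and RPS12, and scaled by library totals alone 18 were higher, with a median over all genes of -0.05. The median of the members was 0.08, against -0.01 over all tested genes. Pair by pair, the members had medians of 0.06, 0.09 and 0.13. In all 3 pairs 14 members were higher in KD, where 13.1% of all tested genes were, and 10 were higher in 2 pairs. RPS18, RPS21, RPS24 and RPS29 were higher in KD without overlap of the groups, where 1.67% of all tested genes were, and 0 members were lower without overlap (1.77%). The shares over all tested genes were not matched for level. The median NC level was 865 CPM for the members and 14.3 CPM over all tested genes. At an unadjusted p under 0.05 with the block, 12 members were higher in KD and 0 lower, beside 2.90% and 2.07% of all tested genes. Since the genes vary together between libraries, these counts are not separate observations, and the medians depended on single libraries: without KD replicate 3 and without the block the members' median was -0.02, and without KD replicate 2 it was 0.01. Those fits tested 31605 and 31474 genes, whose medians were 0.10 and 0.11, so in both the members lay below all genes. These sets are not the 16929 genes of the full fit, so the baselines differ. Genes with counts numbered 53121 in KD replicate 1 and 52077 in NC replicate 1, against 30641 to 32311 in the other libraries. Without NC replicate 1 the members and all genes both had a median of -0.00.

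Subgroups by evolutionary age, disease and start site had medians between 0.05 and 0.11 on the log2 scale. The 13 proteins found in all domains of life had a median log2 fold change of 0.11 (1 called), and the 15 that eukaryotes share with archaea or have alone had 0.06 (0 called). The 10 genes linked to Diamond-Blackfan anaemia had a median of 0.09, with 1 called, RPS29, and all 10 higher in KD with the block (9 when pseudogene counts were added). Of all 28 members 26 were higher in KD, and RPS29 was the only call. Over all tested genes 48.0% were higher in KD and 0.142% were called higher. The 19 genes with the TOP tract at the RefSeq start had a median of 0.08 and the 6 without it 0.05, RPS29 being among the 6 by that start. All these values are from the fit with the block, and the difference between subgroups was not tested.

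Replicate 1 of both groups differed from the other libraries in the members far more than KD did from NC. Relative to replicates 2 and 3 of the same group, 22 members were lower in replicate 1 in both groups and 3, RPS13, RPS18 and RPS19, were higher in both. The median difference was -0.26 on the log2 scale in KD and -0.23 in NC, against 0.02 in KD and 0.00 in NC over all tested genes. RPS2 showed the largest, -0.85 in KD and -0.72 in NC. The members kept nearly the same order in both groups, with Pearson r of 0.92 across the 28 genes, which share their libraries. These are the libraries with 50.03% (KD) and 48.6% (NC) of records outside annotated features, and the part of this share in the pattern was not tested. In NC the coefficient of variation over the 3 libraries ran from 1.34% for RPS15 to 26.1% for RPS26, with a median of 10.7%.

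**Figure D3:**
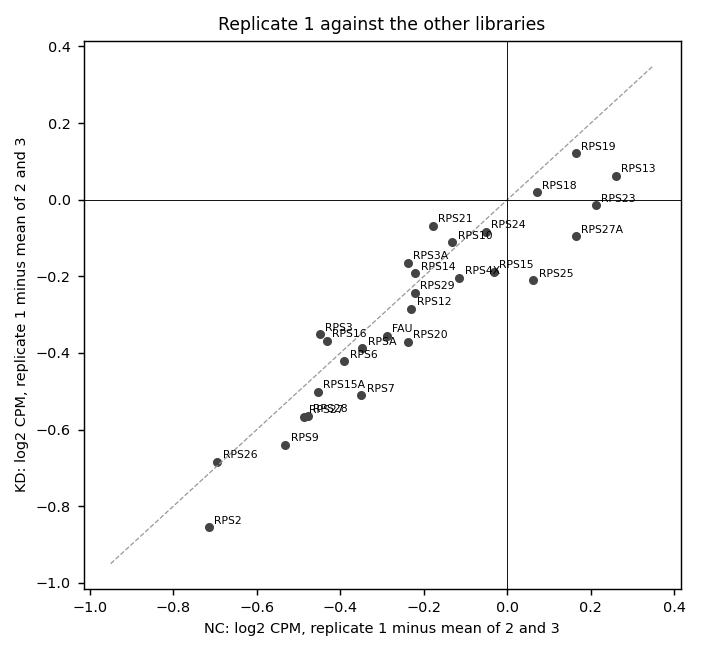
Difference in log2 CPM between replicate 1 and the mean of replicates 2 and 3 for each of the 28 genes, in KD (vertical axis) and in NC (horizontal axis), with a dashed line of equality. RPS2 lies lowest at -0.85 in KD and -0.72 in NC, and RPS13, RPS18 and RPS19 lie above 0 in both groups.

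Counts also fell on pseudogenes that carry the members' names, which are intron-less copies of their messenger RNAs reinserted in the genome. Of 474 such copies listed, 82 passed the filter on low counts and 7 rose in KD in the fit with the block, while 0 fell, beside 0.142% and 0.0295% of all tested genes. RPS23P8 (chromosome X) had 241, 316 and 404 CPM in KD, against 171, 212 and 264 CPM in NC (log2 fold change 0.56, edgeR quasi-likelihood with block, adjusted p 8.42e-06). Its parent RPS23 had 1504, 1492 and 1547 CPM in KD, against 1549, 1369 and 1308 CPM in NC, a log2 fold change of 0.11. The copy was higher in KD within each pair although the groups overlapped, and RPS23 was not higher in pair 1. RPS27AP16 (chromosome 16) had 199, 184 and 215 CPM in KD, against 140, 130 and 142 CPM in NC (0.54, adjusted p 1.76e-05 in the same fit). RPS15P4 (chromosome 2) had 496, 526 and 616 CPM in KD, against 392, 393 and 465 CPM in NC (0.39, adjusted p 0.000217). Both lay higher in every KD library than in any NC library, beside estimates of 0.06 for RPS27A and 0.01 for RPS15. RPS18P5 rose by 0.44, and RPS7P1, RPS3AP26 and RPS2P5, named here after their values were seen, by 0.37, 0.32 and 0.27. Without the block none of the 7 was called, and 6 of the 82 copies were higher in KD at an unadjusted p under 0.05, beside 0.177% of all tested genes.

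The copies differ from their parents at few bases, as these stretches around 1 difference show. Each is a 41-base window of the coding sequence (GENCODE 29, GRCh38), 5′ to 3′, and the capital marks the base that differs. RPS23P8 is 99.1% identical to its parent over its 330 bases, RPS27AP16 99.0% over the 500 aligned and RPS15P4 97.3% over the 447 aligned, and the longest runs of identical coding sequence are 156, 125 and 165 bases.
RPS23, coding bases 114 to 154: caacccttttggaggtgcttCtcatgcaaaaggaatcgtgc
RPS23P8, chrX:70962975-70963015, plus strand: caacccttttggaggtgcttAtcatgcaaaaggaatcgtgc
RPS27A, coding bases 75 to 115: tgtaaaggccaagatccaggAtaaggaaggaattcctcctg
RPS27AP16, chr16:61055800-61055840, minus strand: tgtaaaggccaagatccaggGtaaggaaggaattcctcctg
RPS15, coding bases 46 to 86: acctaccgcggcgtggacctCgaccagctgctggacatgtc
RPS15P4, chr2:171517631-171517671, minus strand: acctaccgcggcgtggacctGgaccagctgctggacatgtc

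A read that lies within an identical run matches both loci and can be set aside as aligned to several places, so the division of counts between parent and copy is uncertain. In all, the copies took 12.5, 10.5 and 11.6 counts per 100 member counts in KD, against 10.5, 8.80 and 10.2 in NC. The ratio was higher in KD in each pair, and the groups overlapped. The copies of 10 genes took more than 10 counts per 100 of the parent in NC, while those of 14 genes took under 1. For RPS15 the copies had 88.7, 83.2 and 95.9 counts per 100 in KD, against 65.9, 64.2 and 76.5 in NC. For RPS7 they had 82.0, 52.0 and 58.5 in KD, against 64.5, 40.1 and 47.6 in NC, and for RPS27A 31.9, 32.3 and 35.3 in KD, against 21.8, 24.5 and 28.7 in NC. RPS15 and RPS27A had every KD library above every NC library, and RPS7 did not. RPS3A also had no overlap, with means of 33.6 in KD and 28.6 in NC. RPS10 had a lower mean in KD, 76.2 against 87.7 in NC. For 7 of the 28 genes the ratio was higher in KD in all 3 pairs. It was lower in all 3 for RPS4X, RPS13, RPS14, RPS19, RPS20 and RPS24.

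Adding each gene's copies to its own count moved the estimates of genes whose copies took many counts, and left the call unchanged. With the block, RPS15 went to 0.17 with its copies, against 0.01 alone, RPS7 to 0.14, against 0.02 alone, and RPS27A to 0.15, against 0.06 alone. RPS10 changed sign, to -0.04 with copies, against 0.03 alone. For 10 genes the copies took more than 10 counts per 100 of the parent in NC, whatever the number of copies. Over these 10 the median was 0.13 with copies, against 0.04 alone, and over the other 18 it was 0.09 both ways. These groups of genes were set after the values were seen and have no test. RPS29 remained the called member (edgeR quasi-likelihood with block, adjusted p 0.00218), and 25 of the 28 sums were higher in KD.

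**Figure D4:**
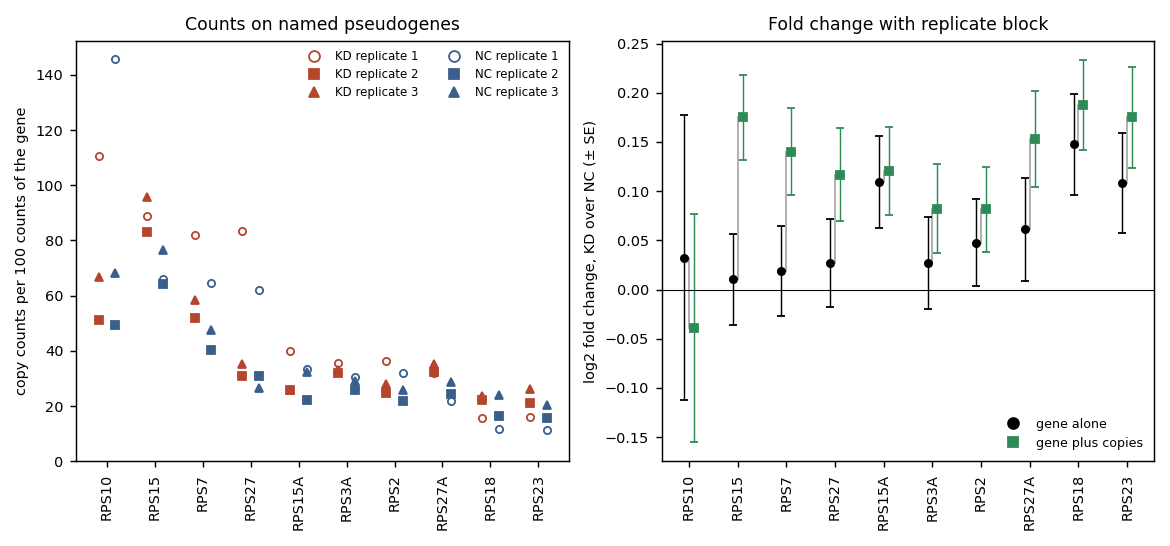
Left, counts on named pseudogenes per 100 counts of the gene in each library, for the 10 genes where this ratio is above 10 in NC, with KD (red) left of NC (blue). Right, log2 fold change in the fit with the replicate block, alone (black) and with copies added (green), with bars of 1 SE; RPS15 stands at 0.17 with copies and 0.01 alone and RPS10 at -0.04 with copies, and with library totals alone RPS3A, RPS7, RPS10, RPS15 and RPS27 alone were below 0.

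Genes that work with the small subunit showed similar or smaller shifts in the fit with the block. Over all tested genes 48.0% were higher in KD, 0.142% were called higher and 0.0295% lower. The 47 proteins of the large subunit had a median of 0.08, with estimates from -0.25 to 0.27 and 37 higher in KD. Of these 47, 1 was called higher and 0 lower. That gene, RPL27, had 1311, 1142 and 1238 CPM in KD, against 1190.5, 944 and 993 CPM in NC (log2 fold change 0.24, edgeR quasi-likelihood with block, adjusted p 0.0275), and its groups overlapped. Of 15 translation factors and related genes with TOP messenger RNAs 14 were tested, with a median of 0.04 and none called. Those with the smallest p were TPT1, the translationally controlled tumour protein, at 0.11, and EIF3H, a subunit of initiation factor 3, at 0.10. The 36 assembly factors of the 40S subunit had a median of 0.03, with MPHOSPH10, of the U3 complex that processes 18S precursor RNA, at 0.15, and NOP56, of the box C/D particles, at 0.10, and none called. The 15 regulators of TOP messenger RNAs had a median of -0.03, with RHEB, the GTPase that activates mTORC1, at 0.13, and TSC1, which restrains RHEB, at -0.09, and none called. The large-subunit genes thus had a median like that of the members, and whether any list differs from another was not tested.

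**Figure D5:**
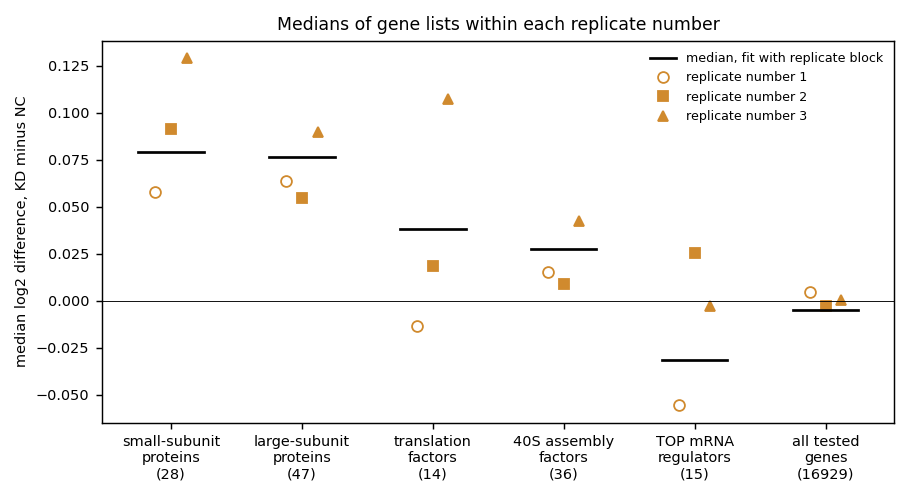
Median log2 difference between KD and NC within replicate numbers 1, 2 and 3 (orange) and in the fit with the replicate block (black bars) for the members, 4 other lists and all tested genes, with the number tested in brackets. The members' medians within pairs are 0.06, 0.09 and 0.13, with a fit median of 0.08 beside -0.01 over all genes; with library totals alone these were 0.04 and -0.05.

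Small nucleolar RNAs, which guide modification of ribosomal RNA, lie within 7 of the member genes. Of the 14 listed, 6 passed the filter, all 6 were lower in KD and none was called. SNORA10, SNORA64, SNORD15A, SNORD73A, SNORD14B, SNORD54, SNORA6 and SNORA62 did not pass, with 0 or 1 counts in each library. Each overlaps annotated exons of its host gene on the same strand. How far ambiguous reads lower these counts was not tested, so they do not show that the RNA is absent. SNORD101, inside RPS12, had 0.957, 1.30 and 1.31 CPM in KD, against 1.68, 2.52 and 1.84 CPM in NC, without overlap and at a low depth (log2 fold change -0.76, edgeR quasi-likelihood with block, adjusted p 0.888). SNORD15B, inside RPS3, had 7.26, 30.2 and 27.2 CPM in KD, against 10.4, 38.5 and 28.4 CPM in NC (-0.27, adjusted p 0.697). RPS3 itself was higher in KD in each pair, so host and guide RNA had estimates of opposite sign.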

How the data were processed

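The authors deposited 1 htseq-count table per library, with the whole-number count of reads for each Ensembl gene. The submitters' processing notes name STAR 2.7.10a, HTSeq 0.11.1, FastQC 0.11.8, DESeq2 and hg38. Annotation release and strand setting: not given in the sources used here. The 5 summary lines of each table stayed out of library sizes and tests, which leaves gene counts of 33.5% to 60.2% of records. Groups and replicate numbers come from the titles. edgeR 4.0.16 in R 4.3.3 (filterByExpr, TMM, robust quasi-likelihood fit) tested 16929 genes with group as the only term and an adjusted p under 0.05. CPM uses TMM library sizes, except that the cell type markers were scaled by the total gene counts of each library. Pair differences use a prior count of 2. No libraries of 1 group matched within sampling noise (chi-square 20.2 to 82.0 per degree of freedom).

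KD and NC libraries of equal number deviated together from their group means (r across genes 0.89, 0.62 and 0.61 for numbers 1, 2 and 3). All exceed 0.1, so the numbers were taken as pairs and fits with the replicate block are given. The labels state no pairing. It rests mainly on number 1, since KD replicate 2 correlated at 0.59 with NC replicate 3 and KD replicate 3 at 0.55 with NC replicate 2, and every call rests on the block. Alternatives were RLE factors, library totals, protein-coding sizes, no filter, DESeq2 1.42.0, limma-voom (limma 3.58.1), sums with pseudogenes and left-out libraries. Scripts were tested on simulated data. Gene structure comes from GENCODE 29. Members and lists were chosen with earlier results of these data known. Every member is given, and in other lists the called genes (up to 4 in each direction) or the 2 with the smallest p are named.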

Additional observations from a re-analysis of the deposited data

How the results depend on the processing

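Without the replicate block no setting called a member or any other gene (RLE factors, library totals, protein-coding library sizes, no filter, DESeq2, limma-voom, sums with copies and each left-out library). With the replicate block 29 genes and 1 member were called; with RLE factors 29 and 1, with protein-coding sizes 26 and 1, with sums 19 and 1, with no filter 68 and 3 (RPS13, RPS21 and RPS29), with DESeq2 41 and 6 (also FAU, RPS19 and RPS3), and with library totals 18 and 0. Leaving out pairs or libraries gave 0 to 119 genes and 0 to 1 members. Without pair 1, 2 and 3 the block fit called 5, 119 and 73 genes; the last 2 fits tested 29982 and 29966 genes.

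The members' median log2 fold change was 0.04 with library totals, with the block (0.035) and without it (0.036), and 0.12 for sums with copies without the block, and it ran from -0.016 to 0.183 over left-out libraries and pairs. Without KD replicates 1, 2 and 3 it was 0.183, 0.014 and -0.016, where all genes had -0.020, 0.108 and 0.103. Without NC replicates 1, 2 and 3 it was -0.0045, 0.144 and 0.143, where all genes had -0.0023, -0.105 and -0.094. The members thus lay below all genes without KD replicate 2 or KD replicate 3, and nearly level with them without NC replicate 1. The mean share of gene counts on the members was 3.06% in KD and 2.88% in NC without mitochondrial genes, 3.09% in KD and 2.93% in NC over protein-coding counts, and 3.18% in KD and 3.02% in NC with copies.

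All estimates that changed sign were uncalled. Library totals moved all genes alike, with a median over all genes of -0.049 with the block and -0.045 without it, against -0.0051 and -0.0036 with TMM factors. With library totals and the block, log2 fold changes were -0.017 (RPS3A), -0.026 (RPS7), -0.013 (RPS10), -0.034 (RPS15), -0.028 (RPS25), -0.017 (RPS27), -0.031 (RPS28) and -0.012 (RPSA). Without the block they were -0.017, -0.022, -0.015, -0.036, -0.037, -0.015, -0.025 and -0.013 for the same genes. RPS9 was 0.0027 with DESeq2 without the block, RPS15 -0.0012 with the block and no filter, and RPS10 with copies -0.039 with the block and -0.056 without it. Over left-out libraries and pairs, estimates ran from -0.138 to 0.301 (RPS2), -0.011 to 0.247 (RPS3), -0.052 to 0.117 (RPS3A), -0.039 to 0.213 (RPS6), -0.086 to 0.185 (RPS7), -0.169 to 0.176 (RPS9), -0.051 to 0.154 (RPS10), -0.148 to 0.032 (RPS12) and -0.048 to 0.079 (RPS15). They ran from -0.036 to 0.268 (RPS15A), -0.049 to 0.200 (RPS16), -0.109 to 0.119 (RPS25), -0.124 to 0.271 (RPS26), -0.113 to 0.203 (RPS27), -0.00031 to 0.149 (RPS27A), -0.160 to 0.192 (RPS28) and -0.075 to 0.156 (RPSA). The cause of the changes over left-out libraries and pairs was not tested. Depth limits RPS10, with 92 to 157 counts a library.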
